A study of Mus musculus with 70 samples.

Results

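The central amygdala (CeA) of mice of the HAB and LAB lines, selected for high and low anxiety-related behavior, was compared on 10 of the 70 arrays of the series, those whose titles name this nucleus. Both lines come from the CD-1 outbred stock. RNA of 6 male HAB mice and of 6 male LAB mice, 10 weeks old, of generation 16 and under basal conditions, was pooled by line, so that the CeA was represented by 1 HAB pool and 1 LAB pool. The tissue was punched from frozen slices, and a punch can hold some of the bordering tissue. Both pools were hybridized together on each dual-colour cDNA array, on 5 arrays with HAB in Cy3 and LAB in Cy5, and on 5 arrays with HAB in Cy5 and LAB in Cy3. The other 60 arrays hold the paraventricular nucleus (PVN), basolateral amygdala (BLA), nucleus accumbens (NAc), medial amygdala (MeA), cingulate cortex (Cg) and supraoptic nucleus (SON) of the same mice, with 10 arrays each. The 10 CeA arrays are technical replicates, and the p-values given for them compare these pools with the spread between arrays. They are not p-values of the lines.

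The CeA is the main output nucleus of the amygdala. Most of its neurons release GABA, and they are told apart by markers such as protein kinase C delta, somatostatin and the peptides neurotensin, tachykinin 2, enkephalin and dynorphin. Through projections to the hypothalamus and brainstem they drive freezing and the autonomic and endocrine parts of fear, which places the nucleus among the candidate sites of a difference in trait anxiety.

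Values are given as log2 HAB/LAB, so that 1 stands for a doubling in HAB and a negative value for a lower level in HAB. A probe was counted when HAB and LAB differed by 1.3-fold or more in the mean of both dye orientations and no array of the 10 ran against that direction. Signal was called above the empty spots when it exceeded the median of the 1170 empty spots of its array by more than 2 median absolute deviations. This held for 15688 of the 22824 probes in at least 5 of the 10 CeA channels of a line. The median intensity of the arrays ranged from 135 to 1332 in the HAB channel and from 320 to 2480 in the LAB channel, against 112 to 484 and 158 to 940 for the empty spots. With HAB in Cy3, array 1 was the dimmest (5707 probes above the empty spots in the HAB channel) and array 4 the brightest.

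The punched tissue was compared with markers of the CeA. Of 26 marker genes listed, 17 were measured and 14 of these lay above the empty spots in at least 10 of the 20 channels. The median intensity percentile of the 17 was 64.3 in the CeA, within the range of the regions from 44.8 to 72.6, with the highest value in the NAc, whose neurons share several of these genes. Only Tac2, the tachykinin 2 precursor, and Isl1, a transcription factor, had their highest percentile in the CeA (69.4 and 44.7). Relative to the empty spots 1 marker in place of 2 was highest there. The probe for Prkcd stood above the 98th percentile in all 7 regions and did not tell the CeA from the others. Markers of excitatory neurons of the BLA and cortex had a median percentile of 37.3 in the CeA, the lowest of the regions, against 67.4 in the Cg. The 16 inhibitory neuron markers measured were also lowest in the CeA, with a median percentile of 63.0 against 83.5 in the NAc. Neither list therefore told the CeA apart by its main cell type. The 5 blood genes measured had their highest median percentile in the CeA (70.9). These percentiles describe the brightness of spots and do not rank transcripts by abundance.

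Of the 22824 probes, 105 were higher and 126 lower in HAB by this count, together 231 or 1.01% (0.46% higher, 0.552% lower). Of these, 125 reached 1.5-fold and 10 reached 2-fold, 4 of them higher and 6 lower. A gene symbol could be assigned to 66 of the probes higher and 101 of those lower in HAB, and 99 and 122 lay above the empty spots. The median SD over the 10 arrays was 0.66, while 90% of all probe means fell between -0.44 and 0.44. The counts rose whichever array was left out, since fewer arrays then had to share a direction. When HAB in Cy3 array 4 was left out, 343 probes were lower on all 9 remaining arrays, and 200 when HAB in Cy3 array 2 was left out. Without any other array 143 to 169 were lower. When both the dimmest and the brightest array were left out, a choice made after seeing the data, the counts were 198 higher and 420 lower.

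With limma over the 10 arrays, a dye term and Benjamini-Hochberg adjustment, 7 probes were higher and 9 lower in HAB (16 probes, 0.0701%), and 1206 and 1553 had an unadjusted p under 0.05. Of these 16, 5 higher and 7 lower probes were also counted. The lower ones numbered 20 without HAB in Cy3 array 4, and 4 or 5 without any other array. The higher ones numbered 4 without HAB in Cy3 array 3, HAB in Cy5 array 2 or HAB in Cy5 array 5. When only the 15688 probes above the empty spots were tested, 69 were higher and 108 lower, of which 50 and 47 were among the counted ones. A probe could enter this set through only the line in which it was brighter. The filter was therefore not independent of the difference tested, and these larger counts are not added support.

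Agreement between arrays over all probes was low. Pearson's r of the log2 ratios of 2 arrays was 0.02 to 0.10 for pairs of arrays that had HAB in Cy3. It was 0.19 to 0.24 for pairs that had HAB in Cy5. Between the orientations it ranged from -0.11 to 0.04, and the means of the orientations correlated with r = -0.14 over the 22824 probes. The orientation means had the same sign in 10320 probes, or 45.2%.

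**Figure D1:**
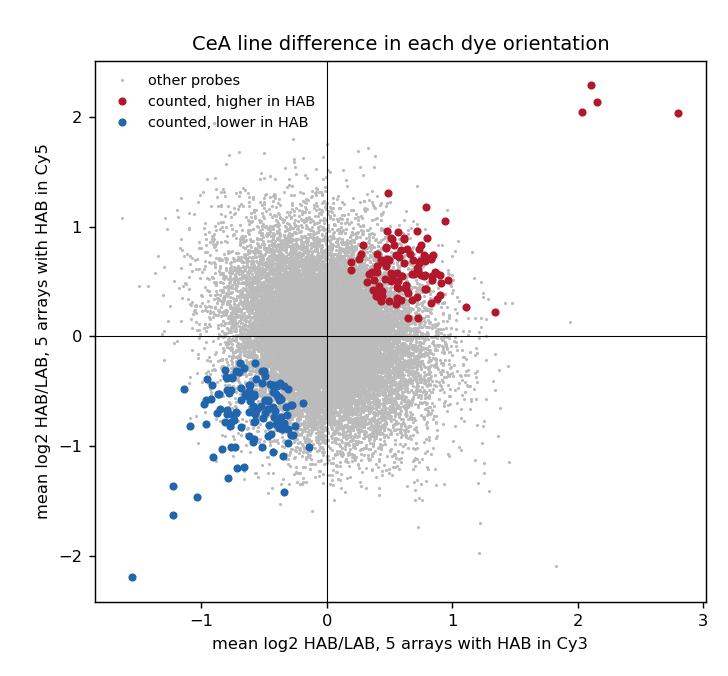
Mean log2 HAB/LAB of each of 22824 probes on the 5 CeA arrays with HAB in Cy3 (horizontal axis) and on the 5 with HAB in Cy5 (vertical axis). Counted probes are coloured, 105 higher and 126 lower in HAB; 4 probes stand apart at the upper right, near 2 on both axes, and Slc25a17 lies farthest at the lower left.

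Most of the largest differences concerned a few genes that were also candidates of the study or shared their pattern. Tor1aip2, with a mean of -1.04, did not share this pattern across the regions and is described further below. For 4 candidates with large CeA differences the primer pairs designed for qPCR are shown, forward first and 5′ to 3′, because they identify the transcript that each name stands for. Letters are in lower case throughout and none is marked. Where the array's cDNA probes lie on these transcripts is not given in the sources used here, and qPCR values were not analysed here.
Rab6a forward: gcctttcttgcctcttccttt
Rab6a reverse: gctcatagcctggagctgtc
Slc25a17 forward: catggcctctgtgctgtcctac
Slc25a17 reverse: gaagccgaagtctagcagtatcca
Mff forward: tatgaaatggaatacaccgaagg
Mff reverse: atctgctggtcttgaaaatgaaa
Mmp15 forward: ccgagatgcagagtttctatgg
Mmp15 reverse: tgaaggtcaggtggtaattgttc

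Cnbp, a zinc finger protein that binds RNA and single-stranded DNA and is encoded on chromosome 6, showed the largest value toward HAB. The log2 ratios were 1.51, 3.64, 2.88, 3.21 and 2.78 with HAB in Cy3, and 1.41, 2.11, 2.04, 2.34 and 2.26 on the arrays with HAB in Cy5. Every array was above 1.4, and array 1 was the lowest in each orientation. The mean was 2.42 or 5.34-fold (SD 0.71, n = 10 arrays, adjusted p = 2.00e-05, limma). A second Cnbp probe, also above the empty spots in 10 HAB and 9 LAB channels, gave -0.32 (SD 0.44, lower on 7 of 10 arrays, adjusted p = 0.425), so that the probes for this gene disagreed.

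Rab6a, the small GTPase RAB6 of Golgi transport on chromosome 7, was represented by 4 probes. Probe 1 gave 1.49, 2.98, 2.65, 1.30 and 2.13 with HAB in Cy3, and 1.62, 2.26, 2.24, 2.93 and 2.38 on the arrays with HAB in Cy5 (mean 2.20, SD 0.58, adjusted p = 4.70e-05, limma). Probe 2 gave 1.81, 3.32, 2.43, 0.44 and 2.15 with HAB in Cy3, and 2.02, 1.85, 2.16, 2.21 and 1.99 on the arrays with HAB in Cy5 (mean 2.04, SD 0.71, adjusted p = 0.000528). Array 4 with HAB in Cy3 was the lowest for both. The other probes stood at -0.15 each (SD 0.47 each, adjusted p = 0.764 and 0.74), and both lay above the empty spots in at least 8 channels of each line. Rab6a was therefore higher in HAB by 2 probes and not by the other 2.

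An unannotated embryonic cDNA clone, 5730540D15, showed a similar signal. It gave 1.65, 2.07, 2.51, 1.70 and 2.83 with HAB in Cy3, and 2.40, 2.14, 1.47, 2.11 and 2.57 on the arrays with HAB in Cy5. The orientations overlapped, with a mean of 2.15 (SD 0.44, adjusted p = 2.00e-05, limma). Sumo2, a ubiquitin-like modifier of other proteins, gave 0.90, 1.52, 0.54, 1.17 and 0.59 with HAB in Cy3, and 0.60, 2.08, 0.47, 1.47 and 0.64 on the arrays with HAB in Cy5. Its mean of 1.00 (SD 0.54) did not pass limma (adjusted p = 0.0636). The Sumo2 spot lay above the empty spots in 7 HAB and 4 LAB channels, and a second probe stood at 0.05 (SD 0.74).

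Slc25a17, a transporter of cofactors across the peroxisomal membrane encoded on chromosome 15, was the lowest in HAB. The values were -1.96, -1.42, -1.54, -1.37 and -1.44 with HAB in Cy3, and -1.60, -1.95, -2.48, -2.38 and -2.55 on the arrays with HAB in Cy5. The mean was -1.87 (SD 0.46, adjusted p = 2.00e-05, limma), a level 3.65-fold lower in HAB. With HAB in Cy5 3 arrays lay below every array with HAB in Cy3. The signal lay above the empty spots in 7 HAB and 10 LAB channels. A second probe, above the empty spots in all channels, gave 0.15 (SD 0.39, 5 arrays in each direction, adjusted p = 0.751).

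Mff, the mitochondrial fission factor on chromosome 1, which recruits the fission GTPase to mitochondria and peroxisomes, was measured by 3 probes. Probe 1 gave -1.70, -1.34, -1.29, -0.36 and -1.45 with HAB in Cy3, and -1.39, -1.97, -1.65, -1.03 and -2.09 on the arrays with HAB in Cy5 (mean -1.43, SD 0.49, adjusted p = 0.00142, limma). Probe 2 gave -1.12, -0.97, -1.34, -0.17 and -1.58 with HAB in Cy3, and -1.66, -0.99, -1.70, -1.85 and -1.09 on the arrays with HAB in Cy5 (mean -1.25, SD 0.49, adjusted p = 0.00608). In both, array 4 with HAB in Cy3 was nearest to 0. The remaining probe stood at 0.06 (SD 0.44, adjusted p = 0.924).

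Mmp15, a membrane-bound matrix metalloproteinase on chromosome 8, had the smallest spread of these genes. It gave -1.57, -1.42, -1.11, -0.63 and -1.40 with HAB in Cy3, and -1.44, -1.27, -1.56, -1.19 and -1.34 on the arrays with HAB in Cy5. The mean was -1.29 (SD 0.28, adjusted p = 0.000778, limma), with HAB and LAB signals above the empty spots in 10 of 10 channels each. Cfap36, a cilium- and flagellum-associated protein known as Ccdc104 at the time of the study, gave -1.62, -0.26, -0.75, -0.33 and -0.61 with HAB in Cy3, and -1.25, -1.49, -1.39, -0.83 and -1.04 on the arrays with HAB in Cy5. Its mean was -0.96 (SD 0.48, adjusted p = 0.0427, limma). A dim second Cfap36 probe, above the empty spots in 4 HAB and 1 LAB channels, stood at 0.17 (SD 1.05).

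**Figure D2:**
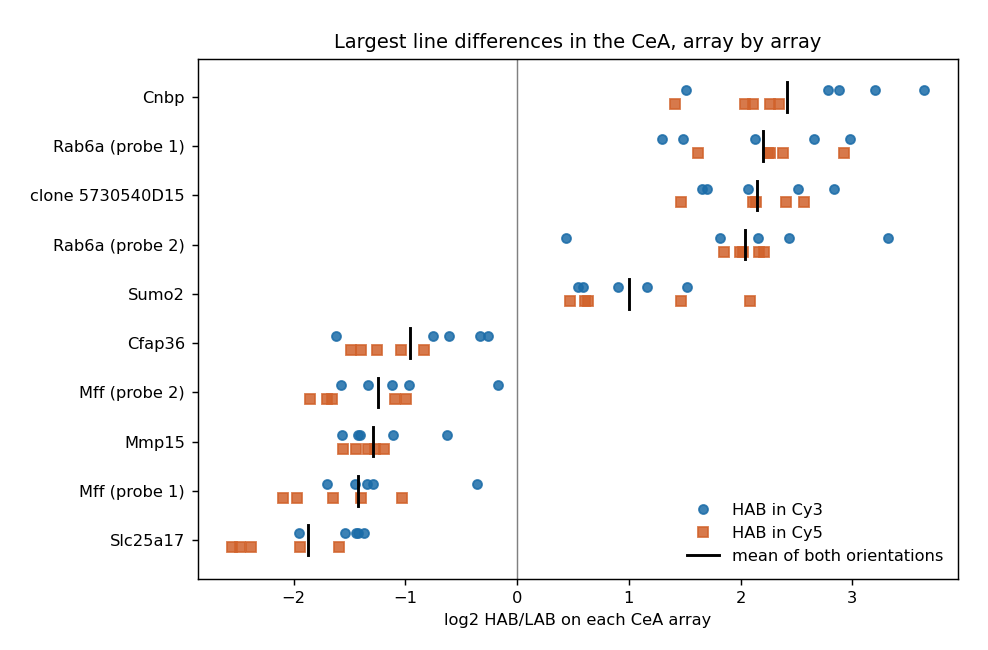
Log2 HAB/LAB on each of the 10 CeA arrays for 10 probes of 8 genes or clones; circles are arrays with HAB in Cy3, squares arrays with HAB in Cy5, and vertical bars the mean of both orientations. All points of Cnbp, Rab6a, clone 5730540D15 and Sumo2 lie above 0, all points of Cfap36, Mff, Mmp15 and Slc25a17 below 0.

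These genes had the same direction outside the CeA as well. The mean values of Slc25a17 in the other regions ran from -2.53 (SON) to -1.35 (BLA), those of Mmp15 from -1.45 (PVN) to -0.92 (NAc), and those of Cnbp from 1.06 (PVN) to 2.49 (BLA). The difference between the CeA value and the mean of the other regions was -0.01 for Slc25a17, -0.08 for Mmp15, 0.12 and -0.05 for the probes of Rab6a and -0.01 for the clone. It was 0.55 for Cnbp (adjusted p = 0.682, limma over 7 region values), -0.37 and -0.54 for the counted probes of Mff, -0.52 for Sumo2 and -0.22 for Cfap36. With limma over the 70 arrays, a test against the spread between arrays, the Mff probe at -0.54 (adjusted p = 0.0102) and Cnbp (adjusted p = 0.0386) passed. In all, 7 of the 105 probes higher in the CeA were higher in HAB in all 7 regions (6.67%, against 1.09% of all probes). They were the 5 probes above, Vipr1, a receptor of vasoactive intestinal peptide (CeA mean 0.57, SD 0.23), and Suclg2, a subunit of succinate-CoA ligase (0.61, SD 0.41). Of the 126 lower probes, 11 were lower in all regions (8.73%, against 1.05% of all probes). Beside those of Slc25a17, Mff, Mmp15 and Cfap36 they included Extl2, a glycosyltransferase of heparan sulfate synthesis (-0.76, SD 0.35), the lysosomal peptidase Tpp1 (-0.59, SD 0.49), the metal-responsive transcription factor Mtf1 (-0.40, SD 0.56), Gcsh of the glycine cleavage system (-0.53, SD 0.42) and Med1 of the mediator complex (-0.47, SD 0.25). The counted probes have their CeA direction by choice, while the shares of all probes require it as well, so that these shares are not alike. Rab6a, Slc25a17, Mff, Mmp15 and Cfap36 are candidates that the study picked for differences across several regions with these arrays and with Illumina arrays. The regions come from the same mice, so that they are not independent samples of the lines.

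Among the probes past limma, 4 were not counted because 1 array had the other direction, and most of their value came from 1 dye orientation. The probe AI838129 averaged 1.94 with HAB in Cy3, against a mean of 0.13 with HAB in Cy5. Ctnnb1, the beta-catenin of cell adhesion and Wnt signalling, gave -0.05, -0.33, -0.18, 0.16 and -0.18 with HAB in Cy3, and -1.81, -1.67, -1.52, -1.49 and -1.44 on the arrays with HAB in Cy5 (mean -0.85, adjusted p = 0.0264, limma), with no overlap of the orientations. Arxes1, an adipocyte-related gene of the X chromosome, gave a mean of -0.86 (adjusted p = 0.0427, limma), and the values with HAB in Cy5 lay at or below -1.16 and those with HAB in Cy3 at or above -0.86.

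Syt4, synaptotagmin 4, a vesicle protein that modulates peptide release, was the fourth of these. The probe past limma gave 1.63, 1.35, 1.75, 1.30 and 1.35 with HAB in Cy3, and -0.05, 0.50, 0.70, 0.30 and 0.08 on the arrays with HAB in Cy5 (mean 0.89, SD 0.66, adjusted p = 0.0271). The orientations did not overlap. The 3 other Syt4 probes stood at -0.12, -0.05 and -0.05 (SD 0.46 to 0.61) and none of them passed. By qPCR and in situ hybridization, not analysed here, the paper reported higher Syt4 in HAB in the CeA, BLA and PVN. Foxred2, a flavoprotein of the endoplasmic reticulum, was counted but also differed between the orientations. It gave 1.23, 1.36, 1.32, 1.56 and 1.26 with HAB in Cy3, and 0.13, 0.33, 0.15, 0.11 and 0.42 on the arrays with HAB in Cy5 (mean 0.79, adjusted p = 0.0427, limma).

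Further genes were lower in HAB in the CeA, with the mean of the other regions nearer to 0 or above it. With limma over the 7 region values none of these differences passed. Tor1aip2, listed on the array as an interferon alpha responsive gene and known as a regulator of torsin in the endoplasmic reticulum, gave -1.13, -0.80, -0.93, -0.25 and -0.82 with HAB in Cy3, and -1.22, -1.05, -2.15, -0.95 and -1.08 on the arrays with HAB in Cy5 (mean -1.04, SD 0.48, adjusted p = 0.025, limma). Its other 3 probes disagreed with it and with each other at -0.39, 0.37 and 0.40. A hypothetical protein, E130304D01, stood at -0.92 (SD 0.46, adjusted p = 0.0427, limma), with 4 of 5 arrays with HAB in Cy5 between -1.02 and -0.88 and the other at -2.02. The other regions ranged from -0.54 (BLA) to 0.21 (MeA) for Tor1aip2 and from -0.27 (NAc) to 0.17 (BLA) for E130304D01.

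Mtss1, which bends membranes and binds actin at dendritic spines, gave -2.42, -0.26, -0.81, -0.72 and -1.25 with HAB in Cy3, and -0.58, -0.99, -0.79, -1.20 and -0.53 on the arrays with HAB in Cy5. The mean of -0.95 (SD 0.60) did not pass limma over the arrays (adjusted p = 0.0826). In the other regions Mtss1 ranged from -0.23 (PVN) to 0.54 (NAc). Rabggtb, the beta subunit of the enzyme that attaches lipid anchors to RAB GTPases, gave -2.21, -0.46, -0.31, -0.19 and -0.99 with HAB in Cy3, and -0.91, -0.74, -1.44, -1.09 and -0.95 on the arrays with HAB in Cy5 (mean -0.93, SD 0.59, adjusted p = 0.0873). Its values elsewhere ranged from -0.15 (NAc) to 0.41 (SON). A second Rabggtb probe, above the empty spots in 1 channel of each line, stood at 0.49 (SD 1.10). For both genes the dimmest array, HAB in Cy3 array 1, was the lowest of the 10.

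Ppp2r2c, a regulatory subunit of protein phosphatase 2A in neurons, gave a mean of -0.87 (SD 0.41, adjusted p = 0.0636) and ranged from -1.34 to -0.08 over the arrays. The brightest of its other probes stood at 0.42 (higher on 9 of 10 arrays). Tiprl, a regulator of the same phosphatase family, averaged -0.88 (SD 0.55, adjusted p = 0.0873). Tdrkh, a protein of the piRNA pathway, averaged -0.80 (SD 0.63, adjusted p = 0.118), with a value of -2.40 on HAB in Cy3 array 1 and between -0.81 and -0.40 on the others of that orientation.

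On the higher side, Abcb11, the bile salt export pump of the liver, averaged 0.99 (SD 0.68, range 0.29 to 2.11, adjusted p = 0.0873) and Gpr27, an orphan receptor of the brain, 0.85 (SD 0.54, range 0.20 to 1.76, adjusted p = 0.088). Both were dim, above the empty spots in 5 and 6 HAB channels and in 1 LAB channel each, so that the sizes of these differences are uncertain.

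The difference between the CeA and the other 6 regions was tested with limma over the 7 region values. No probe passed, while 968 probes had an unadjusted p under 0.05 above and 988 below the other regions. The smallest adjusted p was 0.39. At the level of arrays, with limma over all 70, 179 probes were above and 428 below, but this test sets the pools of a region against the spread between arrays. The named probes with the smallest p over region values and lower in the CeA were Rabggtb (CeA minus the other regions -1.03), Mtss1 (-1.14), Mrfap1, which binds a chromatin factor (-1.02), nephroblastoma overexpressed gene, a secreted matrix protein (-1.0), and a CHORD-containing zinc-binding protein (-0.94). Those higher were AI838129 (1.16), an arsenite transporter homolog (1.09), chemokine ligand 2 (1.06), the ligand of platelet selectin (1.11) and Clvs1, a lipid-binding protein of clathrin-coated vesicles (1.25). The transporter homolog, chemokine ligand 2 and the selectin ligand lay above the empty spots in at most 5 HAB and 2 LAB channels, and the nephroblastoma overexpressed gene in 0 HAB and 3 LAB channels. Every other region stood at under 0.5 times the size of the CeA value for 11 of the probes counted higher and for 29 of those counted lower. The share over all probes was not computed. Counted probes were chosen for large CeA values, so that these numbers do not show a difference particular to the CeA.

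Many of the higher probes in the CeA were very bright spots with the other direction elsewhere. Of the 105, 45 were lower in HAB on all 10 NAc arrays (42.9%, against 1.44% of all probes) and 27 of these also on all 10 Cg arrays. The group was chosen after these values had been seen. Its median was 0.65 in the CeA (0.40 to 0.79) and -1.02 in the NAc (-1.36 to -0.30), and it stood at -0.82 in the Cg, -0.38 in the SON, -0.30 in the BLA, 0.02 in the MeA and 0.17 in the PVN. The group included the myelin genes Mobp (CeA 0.72, NAc -1.21) and Cnp (0.69, NAc -1.36), the transcription factor E2f4 (0.77, NAc -1.26), the ubiquitin ligase Rnf141 (0.79, NAc -1.17), the secreted protein Pamr1 (0.77, NAc -1.26) and the Nogo receptor Rtn4r (0.61, NAc -1.05).

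The 45 probes were among the brightest of the array. Their median intensity percentile was 99.5, and 31 were in the brightest 1% of probes. Of the 45, 20 lay in grid column 12 of the 21 columns of a print block (44.4%, against 5.05% of all probes), and the 45 were spread over 25 print blocks. Of the 228 probes in the brightest 1%, 44 were counted higher and 0 lower, and their median was 0.31. The bright probe of Mobp gave 0.64, 0.40, 0.40, 1.27 and 0.48 with HAB in Cy3, and 0.88, 0.86, 0.68, 0.89 and 0.66 on the arrays with HAB in Cy5, with array 4 with HAB in Cy3 the highest of all. Its other probes above the empty spots stood at -0.33 and -0.37. The part of spot brightness and print position in these values was not tested.

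**Figure D3:**
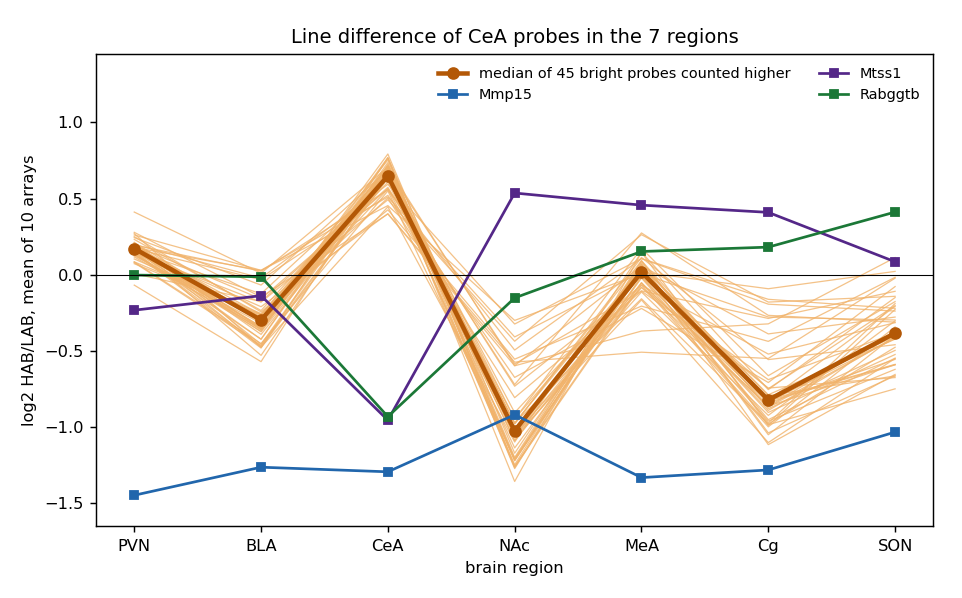
Mean log2 HAB/LAB (10 arrays each) in the 7 regions for the 45 bright probes counted higher in the CeA and lower on all NAc arrays (thin lines, thick line their median), and for Mmp15, Mtss1 and Rabggtb. The median of the 45 is 0.65 in the CeA and -1.02 in the NAc; Mmp15 lies below -0.9 in every region, and Mtss1 and Rabggtb reach below -0.9 only in the CeA.

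Probes of the same gene were set beside the counted probes. The 56 genes with a probe counted lower had 90 further probes above the empty spots that were not counted, of which 67 were below 0 and 23 above. The 14 genes with a probe counted higher outside the bright group had 17, of which 3 were above 0 and 14 below. The 10 genes of the bright group had 15, of which 9 were above 0 and 6 below. Counted probes were left out of these numbers, so that a second counted probe, as for Rab6a or Mff, could not add to the agreement. An uncounted Ugcg probe enters both the lower and the higher set. Over all probes 51.0% were above 0, and this share was not computed for the probes above the empty spots. No gene counted higher had other probes that all pointed toward HAB with a median of at least 1.3-fold. Of the genes counted lower, 10 had other probes above the empty spots that were all below 0 with a median of that size. With their counted probes included, these 10 genes had 23 probes in all. They were chosen by this comparison after their values had been seen.

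Idh1, the cytosolic isocitrate dehydrogenase that supplies NADPH, had the largest values of the 10. The counted probe gave -0.43, -0.38, -0.42, -0.34 and -0.14 with HAB in Cy3, and -1.35, -0.65, -0.83, -2.78 and -1.47 on the arrays with HAB in Cy5 (mean -0.88, SD 0.80), and the second averaged -1.01 (SD 0.68, lower on 9 of 10 arrays). The orientations of the counted probe did not overlap, and the values with HAB in Cy3 were nearer to 0. One more Idh1 probe, not above the empty spots in more than 1 channel of a line, stood at 0.40. Selenop, a secreted protein that carries selenium, had 4 probes, at -0.72, -0.62, -0.51 and -0.49 (SD 0.41 to 0.55), lower on 10, 8, 9 and 9 of 10 arrays.

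Arl6ip1, which shapes tubules of the endoplasmic reticulum, gave -0.77 and -0.75, and Ssr1, the translocon-associated subunit alpha, -0.75, -0.66 and -0.59. Hmgcs1 is an enzyme of the sterol pathway (-0.60 and -0.45), Insig2 retains the sterol sensor in the endoplasmic reticulum (-0.57 and -0.56), and Elovl5 is a fatty acid elongase (-0.47 and -0.48). Extl2 (-0.76 and -0.69), the zinc finger protein Zfand6 (-0.74 and -0.48) and the actin-bundling plastin Pls3 (-0.45 and -0.63) completed the group. None of these 23 probes passed limma over all probes, with adjusted p from 0.0636 to 0.229. Outside the CeA the values of Insig2 ranged from -0.31 to 0.26 and those of Selenop from -0.42 to 0.80, while Extl2 was negative in every region for both probes.

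In other genes some probes conflicted or differed in size. Ugcg, the glucosylceramide synthase, was counted lower by 2 probes (-0.58, SD 0.41, and -0.57, SD 0.35) and stood at -0.47 (SD 0.50) by another, but was counted higher by a dimmer one (0.52, SD 0.47). Glul, the glutamine synthetase of astrocytes, was counted lower at -0.64 (SD 0.34). Its 8 other probes above the empty spots ranged from -0.56 to 0.25, with 4 of them at -0.21 or below, 2 at -0.01 and 0.00, and the brightest at 0.25 (SD 0.45). For the GABA-B receptor subunit Gabbr1, 3 probes were negative, at -0.56 (SD 0.39, counted), -0.33 (SD 0.59) and -0.28 (SD 0.50), and the dimmest stood at 0.58 (SD 0.82). The 3 probes of cytoplasmic actin, Actb, were all below 0 but differed in size, at -0.71 (SD 0.26, counted), -0.50 (SD 0.44) and -0.20 (SD 0.36). These 3 genes and Ugcg were chosen after their values had been seen.

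**Figure D4:**
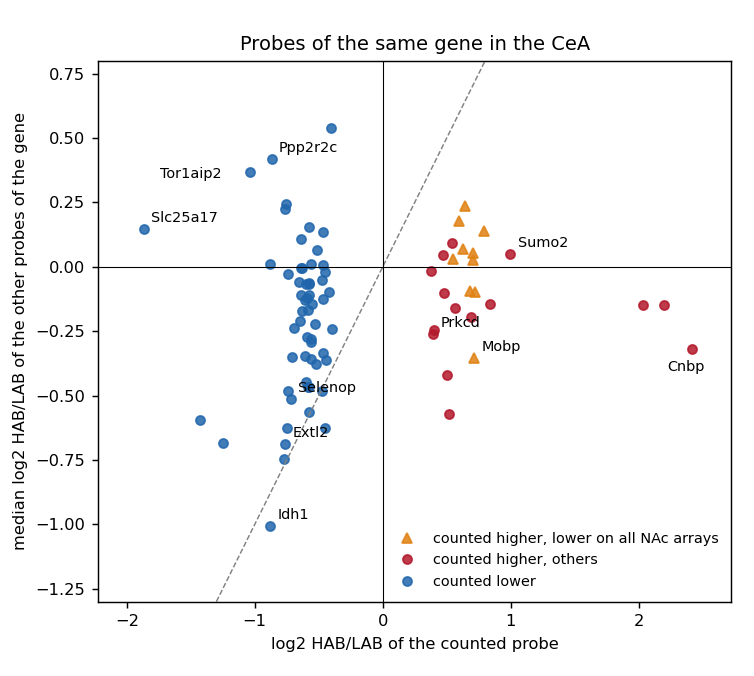
Log2 HAB/LAB of each counted probe (horizontal axis) against the median of the other probes of its gene that lay above the empty spots (vertical axis), with the line of equality dashed. Blue circles are probes counted lower, red circles probes counted higher and orange triangles the bright group. Idh1, Extl2 and Selenop lie near the line, and Slc25a17, Cnbp, the Rab6a probes and Sumo2 near 0 on the vertical axis.

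Gene lists of CeA neurons and their signalling were described by the same count. Each gene was represented by its brightest probe, and over all probes the median was 0.01 with 51.0% above 0, and 1.01% were counted. Counted probes were bright, with a median intensity percentile of 98.6 for those higher and 86.6 for those lower. The share over all probes is therefore not a matched background for lists of brightest probes. Of 17 CeA neuron markers, 1 was counted higher and 0 lower (0 passed limma, the smallest adjusted p being 0.186), 9 were above 0 and 8 below, and the median was 0.02. The counted marker was Prkcd, protein kinase C delta of the CeA neurons that are inhibited by threat, with 0.10, 0.26, 0.16, 1.26 and 0.06 with HAB in Cy3, and 0.11, 0.69, 0.52, 0.52 and 0.28 on the arrays with HAB in Cy5 (mean 0.39, SD 0.37, adjusted p = 0.326). Array 4 with HAB in Cy3 was the highest, and a second Prkcd probe gave -0.26 (SD 0.71). The serotonin receptor Htr2a, which marks a CeA population that promotes feeding, had the largest mean of the list at 0.82 (SD 0.94, above 0 on 8 of 10 arrays). Its probe was dim, above the empty spots in 5 HAB and 4 LAB channels, so that the size of this difference is uncertain. Sst, somatostatin, stood at 0.16 (SD 0.28) and Nts, neurotensin, at 0.39 (SD 0.55, above 0 on 9 of 10 arrays).

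Of the neuropeptides, their receptors and their processing enzymes, 24 genes were measured, 11 above and 13 below 0 with a median of -0.04. Only Vipr1 was counted. It gave 0.97, 0.54, 0.79, 0.10 and 0.41 with HAB in Cy3, and 0.63, 0.43, 0.68, 0.57 and 0.58 on the arrays with HAB in Cy5 (mean 0.57, adjusted p = 0.118, limma). All values were positive and the orientations overlapped. Cpe, the carboxypeptidase that trims neuropeptides, stood at -0.60 (SD 0.45, below 0 on 9 of 10 arrays, adjusted p = 0.162) and Npy, neuropeptide Y, at -0.52 (SD 0.66, 8 of 10 arrays). All 3 opioid precursors measured were below 0, Pnoc (nociceptin) at -0.75 (SD 0.95), Penk (enkephalin) at -0.31 (SD 1.02) and Pdyn (dynorphin) at -0.11 (SD 0.60). Each spread over both directions, with 6 or 7 of 10 arrays below 0.

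Of 18 genes of GABA synthesis, transport and reception, 8 were above and 10 below 0 (median -0.07) and 0 were counted by their brightest probe. Gad1, which synthesizes GABA, stood at 0.36 (SD 0.46, adjusted p = 0.395). Of 18 stress axis genes, 10 were above and 8 below 0 (median 0.03) and 0 were counted. Tsc22d3, a glucocorticoid-induced gene, stood at -0.47 (SD 0.78). In neither list did a gene pass limma, with smallest adjusted p of 0.13 and 0.432. Of 40 genes of cAMP and protein kinase C signalling only Prkcd was counted, and Creb1, a transcription factor activated by cAMP, had the largest value at -0.82 (SD 1.02, below 0 on 7 of 10 arrays).

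Counted genes of the glial lists were as follows. Of 20 oligodendrocyte genes, 6 were above and 14 below 0 (median -0.17). Mobp and Cnp were counted higher, both in the bright group described above, while Mbp, myelin basic protein, stood at -0.40 (SD 0.42). Of 13 microglial genes Ctss, the lysosomal protease cathepsin S, was counted lower (-0.69, SD 0.37, adjusted p = 0.088), the list having a median of -0.13 with 8 genes below 0. Aif1, the microglial protein IBA1, stood in the other direction at 0.73 (SD 0.90). Of 18 astrocyte genes 0 were counted by their brightest probe. In pooled tissue, fewer cells of a type and less RNA per cell cannot be told apart.

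Among 32 lysosomal genes, Ctss and Tpp1 were counted lower and 19 were below 0 (median -0.05). Lamp1, a lysosomal membrane protein, was counted lower by a dimmer probe (-0.65, SD 0.44) and stood at -0.29 (SD 0.49) by the brightest. Of 5 metallothioneins and zinc genes, 4 were below 0 (median -0.38), with Mtf1 counted and Mt1 at -0.65 (SD 0.54, below 0 on 9 of 10 arrays). Of 52 genes of actin and membrane bending, 35 were below 0 (median -0.10), and Mtss1 and Cdc42, a small GTPase that controls actin assembly (-0.47, SD 0.27), were counted lower. The other probes of Cdc42 stood at -0.53, -0.33 and 0.35. Of 65 genes of oxidative phosphorylation 42 were below 0 (median -0.10), and only Sdha, a subunit of succinate dehydrogenase, was counted (-0.60, SD 0.30, adjusted p = 0.118). 

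Of the 33 genes marked as candidates in the study's list of qPCR primers, 26 were measured, 2 counted higher and 5 lower. Of all probes, whatever their brightness, 1.01% were counted. The study chose them with these arrays and with Illumina arrays, so that their direction here is not independent evidence. By qPCR of the entire brain, not analysed here, the paper reported line differences for Slc25a17, Mmp15, Zfp672, Ctsb and Hmgn3, among others. Those counted higher included Rab6a, and those counted lower were Slc25a17, Mff, Mmp15, Cfap36 and Smarcd3, a subunit of a chromatin remodelling complex (-0.46, SD 0.43, adjusted p = 0.232). Zfp672, a zinc finger protein, gave 0.32, -0.13, -1.11, -0.78 and -0.16 with HAB in Cy3, and -1.28, -1.40, -1.65, -2.13 and -1.17 on the arrays with HAB in Cy5 (mean -0.95, SD 0.76, adjusted p = 0.0588, limma). It was lower on 9 of 10 arrays, and the orientations did not overlap. Ctsb, the lysosomal protease cathepsin B, stood at -0.31 (SD 0.63, below 0 on 8 of 10 arrays), and its other probes at -0.55, -0.17 and 0.22. The beta-globin Hbb-b1 stood at 0.50 (SD 0.48, above 0 on 9 of 10 arrays, other probes -0.23 and 0.12), the thyroid hormone carrier Ttr at 0.36 (SD 0.49) and the nucleosome-binding protein Hmgn3 at 0.36 (SD 0.52). None of these 5 passed limma. Glo1, glyoxalase 1, an earlier candidate of these lines, was negative by all 5 probes, at -0.80, -0.70, -0.43, -0.21 and -0.01 (SD 0.47 to 1.08), of which the first had an adjusted p of 0.088.

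**Figure D5:**
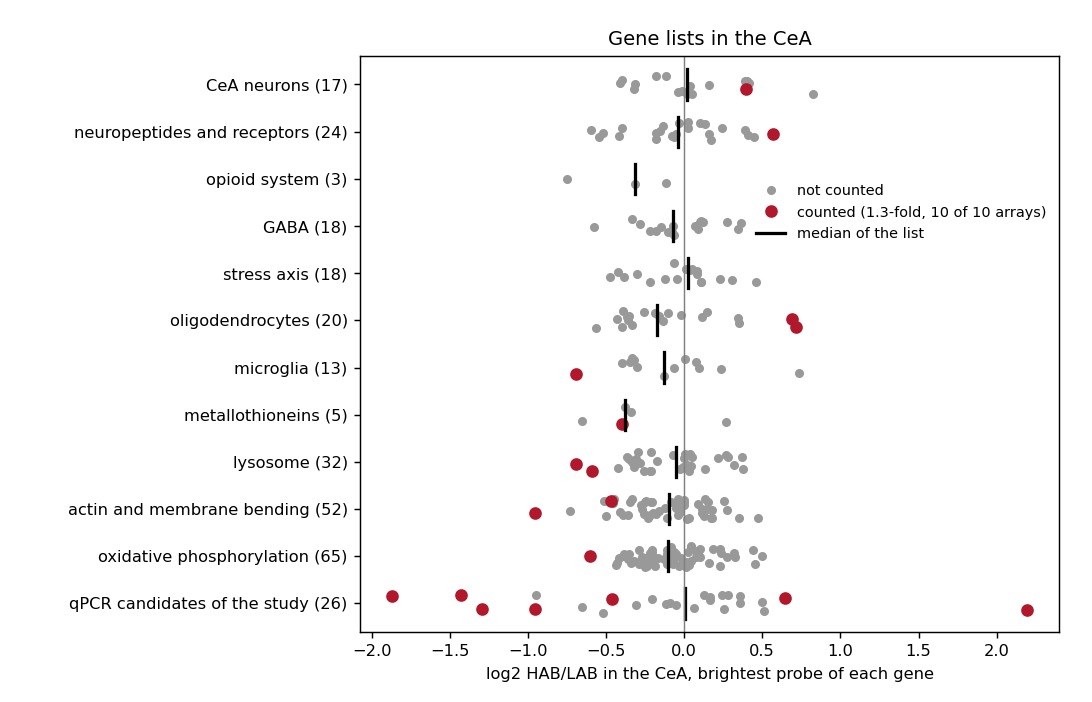
Log2 HAB/LAB in the CeA of the brightest probe of each gene in 12 lists, with the number of genes measured in brackets; red points were counted (1.3-fold and 10 of 10 arrays in 1 direction), grey points were not, and black bars are list medians. The medians lie between -0.38 (metallothioneins) and 0.03 (stress axis), and the candidates of the study hold 7 red points.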

How the data were processed

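For each of the 10 CeA arrays (MPIP24k cDNA array, 24192 spots in 48 print-tip blocks), the authors deposited scanner files with the intensity of each spot and its background in both channels, not normalized. RNA had been amplified and coupled to Cy3 or Cy5. The authors also deposited a table of normalized log2 ratios per spot, whose direction was checked against the intensities and which served as an alternative. Line, region, dye and replicate number came from the labels. Same-numbered arrays of both orientations did not deviate together (r of the deviations -0.02 to 0.00), so that the numbers did not pair them.

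Intensities were background corrected in limma 3.58.1 with R 4.3.3 (normexp, offset 50), normalized within each array by loess (span 0.4), centred on the median within print-tip blocks, and turned to log2 HAB/LAB. Values were averaged within and then over the dye orientations. Without the 1368 spots that were empty or controls, the set held 22824 probes, of which 7832 were matched to 5366 gene symbols through RefSeq names and synonyms. No array repeated another (the highest r of log2 intensities was 0.805). Limma used a dye term over 10 arrays, or a CeA term over 7 region means, and was tested on simulated data. Figures were drawn with matplotlib.

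Members, lists and tests were chosen with earlier results of these data known. Named genes were the 12 largest counted differences per direction with a symbol and signal, all probes past limma, counted list members and the 2 with the smallest p per list, the 5 smallest p per direction against the other regions, and the candidates of the study; further probes are given as chosen after their values were seen. A few genes that this rule names are not reported here. Alternatives were other normalizations and background settings, the authors' table, single orientations, left-out arrays, a replicate block, the day in the scan header as a block, and means over all probes of a gene.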

Additional observations from a re-analysis of the deposited data

Results flagged for a closer look

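Among 80 groups of 5 arrays (40 probes in each dye orientation), the array farthest from the rest was set apart by its gap to the nearest array as a share of the range of the group. Chance alone sets apart about 1 in 20 such groups. The share was 0.71 for Slc25a17 on array 1 with HAB in Cy3 (-1.96), 0.76 for Abcb11 on that array (2.11) and 0.793 for Tdrkh on that array (-2.40), which was the dimmest array. It was 0.831 for Prkcd (1.26) and 0.717 for Mobp (1.27) on array 4 with HAB in Cy3, the brightest array. With HAB in Cy5 it was 0.769 for Tor1aip2 on array 3 (-2.15), 0.877 for E130304D01 on array 5 (-2.02) and 0.722 for Tdrkh on array 4 (-1.30). The part of array brightness in these values was not tested.

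Some counted probes had opposite directions on all 10 arrays of the CeA and all 10 of another region, a difference that was not tested. Of the probes higher in HAB in the CeA, 45 were lower in the NAc, 30 in the Cg, 6 in the BLA, 6 in the SON and 3 in the PVN. Of those lower in HAB in the CeA, 7 were higher in the NAc, 4 in the Cg, 1 in the MeA and 1 in the SON. Of all probes, 1.44% were lower on all 10 NAc arrays and 0.894% on all 10 Cg arrays. Such shares were not computed for the other regions or for the higher direction, so that those counts have no background to be read against.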

How the results depend on the processing

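The counts were 105 probes higher and 126 lower in HAB, and with limma 7 and 9. They were 59 and 205 with median centring only (limma lower 18), of which 18 and 60 were the same probes. Loess over all spots gave 125 and 111, of which 73 and 50 were the same. The authors' log2 ratios gave 81 lower, and limma gave 186 higher and 280 lower; fewer probes were tested there. Limma gave 61 higher and 109 lower without background correction, 4 lower with an offset of 16, 69 and 108 over the probes above the empty spots, and 4 and 5 without a dye term. With HAB in Cy3 only, 1080 were higher and 947 lower (limma 3 and 0), and with HAB in Cy5 only 1648 and 2210 (limma lower 2), fewer arrays having to share a direction. Leaving out single arrays gave 120 to 156 higher and 143 to 343 lower, and with limma 4 to 7 higher and 4 to 20 lower. The replicate block gave 4 higher and 3 lower with limma, as did the header day as a block. The day that held both orientations gave 212 and 274 (limma lower 3). The mean over all probes of a gene gave 73 genes lower. Without the dimmest and brightest arrays, an alternative chosen after seeing the data, 198 were higher and 420 lower (limma higher 4). Both directions together were 125 at 1.5-fold, 10 at 2-fold and 920 with at least 9 of 10 arrays. The regional contrast gave 607 probes over 70 arrays and 18 against the BLA and MeA only, and 1 CeA marker was highest in the CeA over the empty spots. The cause of these shifts was not tested beyond what is said. Of the 112 values of named probes, 16 changed sign under at least 1 alternative, 11 with HAB in Cy3 only. None of these were among the 45 counted ones. A counted probe has 1 direction on all 10 arrays. Leaving out arrays, or using 1 orientation or 1 day, could therefore not change its sign. By over 1 SD, 16 moved with the mean over the probes of a gene and 4 of 77 with the authors' table. With loess within print-tip blocks 3 moved, and with median centring 1. With 1 pool per line, the spread between mice is unknown, and dim probes give uncertain sizes.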

Other observations

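Other lists held no counted gene by the brightest probe and none past limma. Of 70 ribosomal proteins 43 were below 0 (median -0.06), yet the smallest adjusted p was that of Rpl32, at 0.82 (SD 0.78, above 0 on 9 of 10 arrays, adjusted p = 0.0523, limma). Of 39 exocytosis genes 22 were below 0 (median -0.03), with the vesicle fusion protein Stx7 at -0.73 (SD 0.54, below 0 on 9 of 10 arrays) and the calcium sensor Syt9 at -0.73 (SD 0.64, 8 of 10 arrays). Of 17 markers of excitatory neurons 9 were below 0, and Nrgn, the calmodulin-binding neurogranin, gave 0.73 by its brightest probe (SD 0.43, 9 of 10 arrays above 0) and -0.46 and -0.06 by the others. The astrocyte connexin Gja1 stood at -0.58 (SD 0.37, below 0 on 9 of 10 arrays), while 12 of the 18 astrocyte genes were above 0 (median 0.09).

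The remaining medians were 0.13 for 18 potassium channels, 0.14 for 10 choroid plexus genes, 0.12 for 14 markers of thalamic and hypothalamic neurons, 0.06 for 23 immediate early genes, 0.03 for 21 glutamate receptors, 0.01 for 19 monoamine genes, -0.02 for 5 blood genes, -0.03 for 20 endothelial and 6 endocannabinoid genes and -0.04 for 16 inhibitory neuron markers, beside 0.01 over all probes.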
